A study of Mus musculus with 44 samples.

Results

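The comparison set out here is that of TCDD (2,3,7,8-tetrachlorodibenzo-p-dioxin) against its vehicle, dimethyl sulfoxide (DMSO), after 12 h in CH12.LX cells, an established mouse B cell lymphoma line. It rests on 8 of the series' 44 arrays, chosen by their labelled treatment and time: 4 arrays of cells given 10 nM TCDD and 4 of cells given 0.01% DMSO. Both groups were seeded at 100000 cells per ml and also received LPS (lipopolysaccharide from Salmonella typhosa), which activates B cells, so every difference below is between activated cells. Arrays of the same treatments at 8 h and 24 h and of untreated cells at 0 h, which had neither LPS nor DMSO, serve as points of reference, with 4 arrays per group. Replicates 1 to 4 were each handled on a day of their own. The spread behind each p-value is thus that of separate days of culture of a single line, not of animals. Levels are log2 of the quantile normalized array signal plus 16, on which the lowest possible value is 4. This scale understates the change of dim genes, and levels of different genes were not compared.

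TCDD, a long-lived dioxin, binds the aryl hydrocarbon receptor (AhR), a transcription factor held in the cytoplasm by HSP90 and partner proteins. Once bound by ligand, the receptor moves to the nucleus, pairs with ARNT and binds DNA elements that hold the letters GCGTG, next to genes such as Cyp1a1 and Ahrr. In mouse B cells, TCDD is known for suppressing the antibody response to LPS, and the step at which activated B cells become antibody-secreting plasma cells is the one most studied.

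The windows around the gene starts of 4 AhR target genes that rose at 12 h are shown first, since they hold the letters to which the activated receptor binds. Each runs 5' to 3' on the gene's strand from 250 bases before to 50 bases after the start, taken from RefSeq on GRCm38.p6, and capitals mark GCGTG on the strand shown or its reverse complement CACGC. The windows lie at chr13:74292282-74292581 (minus strand) for Ahrr, chr9:57697363-57697662 (plus strand) for Cyp1a1, chr17:79715012-79715311 (minus strand) for Cyp1b1 and chr3:65528197-65528496 (plus strand) for Tiparp.
Ahrr: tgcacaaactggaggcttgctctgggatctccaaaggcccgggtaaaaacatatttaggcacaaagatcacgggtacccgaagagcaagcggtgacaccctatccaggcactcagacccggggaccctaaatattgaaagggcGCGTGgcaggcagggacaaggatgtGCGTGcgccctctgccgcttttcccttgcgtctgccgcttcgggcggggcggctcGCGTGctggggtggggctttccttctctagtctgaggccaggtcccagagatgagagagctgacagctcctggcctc
Cyp1a1: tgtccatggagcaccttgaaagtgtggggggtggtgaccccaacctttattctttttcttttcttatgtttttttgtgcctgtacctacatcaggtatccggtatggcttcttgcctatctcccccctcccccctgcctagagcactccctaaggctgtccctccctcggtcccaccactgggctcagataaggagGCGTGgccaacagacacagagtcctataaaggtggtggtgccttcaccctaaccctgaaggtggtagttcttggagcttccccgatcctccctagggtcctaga
Cyp1b1: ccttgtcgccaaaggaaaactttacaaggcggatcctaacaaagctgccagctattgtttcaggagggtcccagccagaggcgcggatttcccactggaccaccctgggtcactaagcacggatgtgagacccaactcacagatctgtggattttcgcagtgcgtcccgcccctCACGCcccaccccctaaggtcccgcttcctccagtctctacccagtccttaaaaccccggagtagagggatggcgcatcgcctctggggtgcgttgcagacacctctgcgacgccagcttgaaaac
Tiparp: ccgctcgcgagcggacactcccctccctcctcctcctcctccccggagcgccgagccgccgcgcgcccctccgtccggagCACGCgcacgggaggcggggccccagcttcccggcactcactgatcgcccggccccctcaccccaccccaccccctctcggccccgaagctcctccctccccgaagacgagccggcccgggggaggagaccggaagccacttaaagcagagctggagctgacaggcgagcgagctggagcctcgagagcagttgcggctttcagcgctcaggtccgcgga
Ahrr held 3 matches and Cyp1a1, Cyp1b1 and Tiparp 1 each, while the windows of Cyp2s1 and Nqo1 held 0. The letters are common: GCGTG on either strand was found in 32.4% of all 32851 windows in the table and in 48.8% of the windows of the genes tested. Among the windows of genes higher with TCDD at 12 h the share was 46.8%, among those of genes higher by at least 2-fold 42.1%, and among those of genes lower with TCDD 55.9%. The longer motif TNGCGTG, with any base at N, was found in 5.07% of all windows, in 7.83% of those of genes tested, in 8.8% of those of genes higher with TCDD, in 10.2% of those of genes higher by at least 2-fold and in 10% of those of genes lower. The motif searches cover 300 bases per window and say nothing about elements farther away.

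The 8 arrays had median deposited signals between 45.0 and 87.6. The highest was that of DMSO replicate 4, against 45.0 to 71.4 on the other arrays, and this array also correlated less with the rest of its group (median r of 0.960, against 0.977 to 0.978 for the other DMSO arrays). Both arrays of day 4 had high log2 ratios of 3' to 5' signal for the control transcript Tfrc. These were 1.38 for DMSO replicate 4 and 1.52 for TCDD replicate 4, against 1.04 to 1.15 on the other arrays. The RNA of TCDD replicate 4 had an absorbance at 260 nm of 9.42, against 3.30 to 5.29 for the others. Some results that rest on DMSO replicate 4 are given with and without it. Most counts of the gene lists are given with it only, and some of them change without it. For cytokine and chemokine receptors, 8 higher and 3 lower became 6 and 2, and for the TLR and NF-kB list 2 higher became 3. The label of a B cell line was set against markers: 8 of 9 B cell markers lay above the signal filter (6.21) in TCDD cells and 9 of 9 in DMSO cells, with Cd74 at 14.55 and 14.52. Of 10 T cell markers, Cd3e, Cd3d, Cd3g, Cd4, Thy1 and Cd247 lay below the filter in both groups, while Cd8b1 (10.15 in TCDD cells, 9.84 in DMSO cells), Cd8a (9.16 and 9.07), Zap70 (7.94 and 7.38) and Cd5 (7.38 and 7.43) lay above it. Also below it in both groups were 6 of 11 macrophage and monocyte markers, Lyz2, Lyz1, Mrc1, Fcgr1, Itgam and Marco, while Csf1r (10.64 and 8.76), Cd68 (9.96 and 9.73) and Adgre1 (9.08 and 8.38) lay above it and Cd14 (6.21 and 6.02) close to it. The remaining macrophage marker, Msr1, read 5.74 and 6.33. The summed signal of the macrophage markers was 3235 to 3551 in TCDD cells, against 1725 to 2012 in DMSO cells, and that of the fibroblast markers 652 to 987, against 351 to 436. These sums are of signal before log2, in which bright members weigh most. Pdgfrb read 8.88 in TCDD cells and 6.39 in DMSO cells, Lum 6.55 and 5.86, Col1a1 6.58 and 6.42, Col1a2 6.77 and 6.58, and Pdgfra 5.66 and 6.33. The fibroblast markers Col3a1, Dcn and Thy1 lay below the filter in both groups. Markers of other cell types that were called were the macrophage markers Csf1r and Adgre1 (0.70 ± 0.20, adjusted p = 0.0226), the fibroblast marker Pdgfrb and the NK cell marker Gzma (6.89 in TCDD cells and 4.73 in DMSO cells, adjusted p = 3.86e-06), all higher, and the dendritic cell marker Itgax, lower (7.27 and 8.22, adjusted p = 0.000336). Of 8 NK cell markers 5 lay below the filter in both groups, and of 6 dendritic cell markers 3 did. The part of other cell types in these results was not tested. Neutrophil and erythroid markers had at most 1 member above the filter in either group.

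At 12 h, 1103 of the 11970 genes tested passed an adjusted p of 0.05 (limma, Benjamini-Hochberg), 9.21% of them. TCDD cells had higher levels for 727 of these genes (6.07% of all tested) and lower levels for 376 (3.14%). The changes were larger on the side of the rises: 180 genes were higher by at least 2-fold (1.5%) and 22 lower by as much (0.184%), and 30 were higher by at least 4-fold and 0 lower. The median log2 change was 0.65 among the genes called higher and -0.43 among those called lower, with 0.01 over all genes tested. In 1074 of the 1103 genes the direction was the same in all 4 same-day pairs. The TCDD and DMSO arrays did not overlap for 916 of the called genes, and for 1588 (13.3%) of all genes tested. The genes were called on these same arrays, which favours both agreement of the pairs and lack of overlap. Neither trait is thus separate support for the calls. With the day as a replicate block, the fit called 1950 genes, 1185 higher and 765 lower, and these included all 1103. Without DMSO replicate 4 the count was 941 (631 higher, 310 lower), of which 558 and 260 were also called in the same direction with it.

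**Figure D1:**
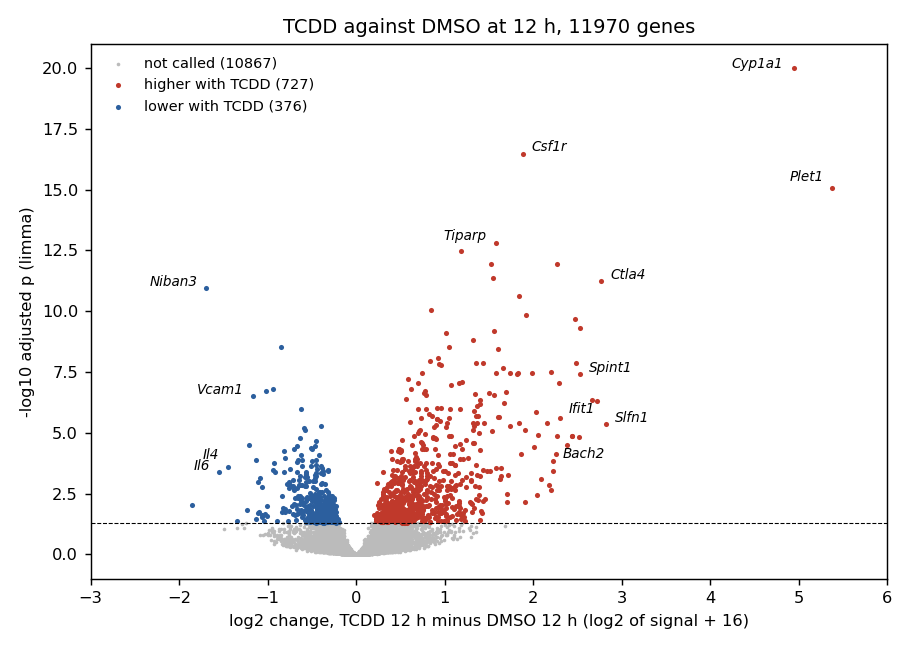
Log2 change of TCDD 12 h minus DMSO 12 h (horizontal) against -log10 of the limma adjusted p (vertical) for 11970 genes; red points are the 727 genes higher with TCDD, blue points the 376 lower, and the dashed line is the threshold of 0.05. The red points reach farther from 0 than the blue ones, with Plet1 and Cyp1a1 at the far right and Niban3 highest on the left.

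Most of the AhR target genes rose. Of 12 genes listed, 10 were on the array and 7 passed the signal filter; 6 of these 7 rose and 0 fell, against 6.07% higher among all genes, with a median log2 change of 1.83. The 7th, the monooxygenase Fmo2, was dim and not called (-0.46 ± 0.49, adjusted p = 0.684). Cyp1a2, Aldh3a1 and Lpcat2 did not pass the filter. It keeps a gene when any group mean exceeds 6.21, so a gene can pass through the group where it is high. In vehicle cells at 12 h, Cyp2s1 and most arrays of Cyp1b1 lay below 6.21. Members kept in this way favour the count of rises. Cyp1a1, a monooxygenase that oxidises aromatic hydrocarbons, read 13.32, 13.35, 13.32 and 13.39 in TCDD replicates 1 to 4, against 7.93, 8.19, 8.56 and 8.94 in DMSO replicates 1 to 4. The TCDD arrays were nearly alike and the DMSO arrays were spread, and the change was 4.94 ± 0.19 (SE; 30.7-fold; adjusted p = 1.03e-20). Cyp1b1, a related enzyme, read 8.24, 8.29, 7.89 and 8.04 with TCDD and 5.57, 6.69, 6.09 and 5.05 with DMSO. Here too the groups lay apart, by 2.26 ± 0.34 (adjusted p = 1.39e-05). Cyp2s1, another P450 enzyme, rose by 2.38 ± 0.38 (adjusted p = 3.22e-05) between arrays at 7.26 to 8.30 with TCDD and 5.22 to 5.84 with DMSO, so it was close to the background of the arrays in vehicle cells.

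The feedback regulators of the receptor rose with its targets. Ahrr, the AhR repressor, which competes with the receptor for ARNT, read 8.89, 8.94, 8.73 and 9.11 in TCDD cells, against 7.28, 7.20, 7.28 and 6.61 in DMSO cells. The change was 1.83 ± 0.20 (adjusted p = 3.57e-08), and 1.67 without DMSO replicate 4, the lowest of the DMSO arrays. Tiparp, an ADP-ribosyltransferase that limits receptor activity, rose by 1.58 ± 0.10 (adjusted p = 1.55e-13), with arrays at 12.91 to 13.17 in TCDD cells and 11.34 to 11.63 in DMSO cells. Nqo1, a quinone reductase shared with the antioxidant response, rose by 1.11 ± 0.25 (adjusted p = 0.00227). The transcript of the receptor itself moved the other way. Ahr read 10.77, 10.68, 10.83 and 11.19 with TCDD and 11.40, 11.28, 11.48 and 11.92 with DMSO, with no overlap and a lower TCDD value on each day (-0.65 ± 0.16, adjusted p = 0.00458). Its dimmer probe set gave -0.54 ± 0.27 and was not called. Arnt, the partner of the receptor, changed by 0.30 ± 0.21 (adjusted p = 0.465) with overlapping groups. Of the 7 measured members of the receptor complex list, 0 rose and Ahr alone fell, against 6.07% higher and 3.14% lower among all genes. Their changes ran from -0.807 to 0.305, and the member at -0.807 was not called. With the replicate block 1 member was higher and 1 lower.

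**Figure D2:**
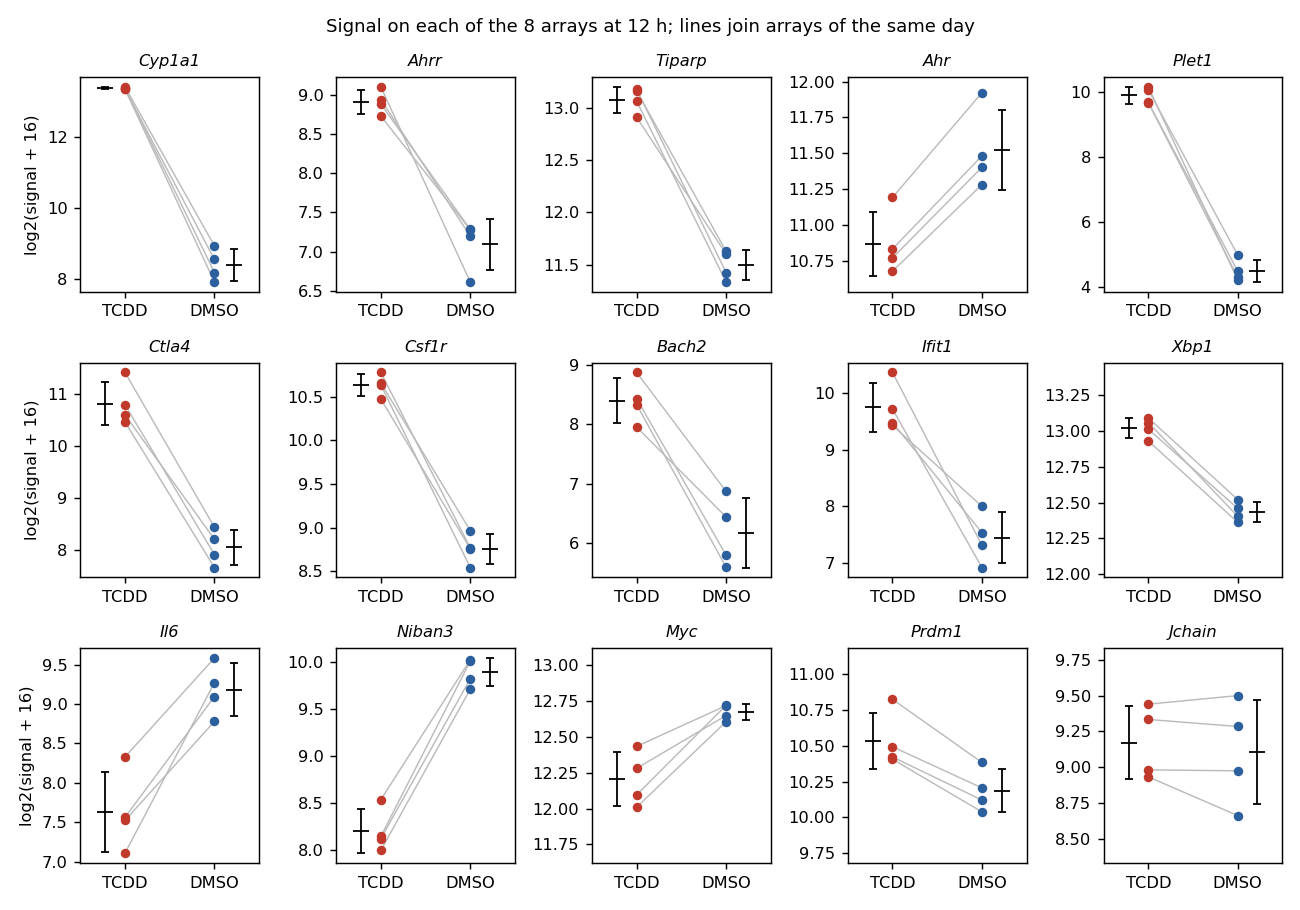
Log2(signal + 16) on each of the 8 arrays at 12 h for 15 genes, TCDD (red) left of DMSO (blue); lines join arrays of the same day, and the bars beside the points give mean and SD (n = 4). The groups lie apart for each gene shown except Jchain, and Ahr, Il6, Niban3 and Myc are lower in TCDD cells on each day.

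The 16 genes with the largest rises spanned 4.88-fold to 41.7-fold. For each of the 16 the TCDD arrays all lay above the DMSO arrays and the call held without any 1 of the 8 arrays. Of all genes tested, 13.3% had groups that did not overlap. The 16 were picked on these same arrays, for size among called genes with the same direction in all 4 pairs. That choice favours both traits, which are thus no separate support. Of these genes, 13 were also called higher at 8 h and 14 at 24 h. Plet1, a surface protein first described in placenta, led them with 9.67, 10.05, 9.66 and 10.15 in TCDD cells, against 4.49, 4.99, 4.31 and 4.22 in DMSO cells. Its vehicle values lay near the floor of the scale. The change was 5.38 ± 0.30 (adjusted p = 8.51e-16), and of its other probe sets one changed by 3.86 ± 0.34 and the other by 0.09 ± 0.36. Spint1 and St14, an inhibitor of serine proteases and the membrane protease matriptase that it inhibits, rose by 2.53 ± 0.28 (adjusted p = 3.97e-08) and 2.47 ± 0.22 (adjusted p = 2.1e-10). St14 read 10.07, 10.44, 10.36 and 10.62 with TCDD and 7.55, 7.63, 8.14 and 8.29 with DMSO. Tph1, an enzyme of serotonin synthesis, rose by 2.72 ± 0.34 (adjusted p = 4.88e-07) and Ptgs2, the inducible prostaglandin synthase, by 2.29 ± 0.26 (adjusted p = 8.78e-08). Both prostaglandin and serotonin synthesis genes were measurable in vehicle cells too, with means of 8.74 for Ptgs2 and 7.49 for Tph1.

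Several of the other large rises were of receptors. Vdr, the vitamin D receptor, read 8.80, 9.16, 9.06 and 9.68 in TCDD cells, against 5.89, 6.06, 7.25 and 6.85 in DMSO cells (2.66 ± 0.33, adjusted p = 4.54e-07). It was the 1 of 14 nuclear receptors that rose, against 6.07% of all genes. P2ry14, a receptor for UDP-sugars, rose by 2.53 ± 0.23 (adjusted p = 4.68e-10), and Pdgfrb, a platelet-derived growth factor receptor, by 2.49 ± 0.26 (adjusted p = 1.37e-08). Fhod3, a formin that organises actin, rose by 2.52 ± 0.38 (adjusted p = 1.44e-05), and by 1.99 without DMSO replicate 4, whose value of 4.37 lay far below the other DMSO arrays (6.32 to 6.62). The remaining genes among these 16 were Atp13a4, a P-type ATPase (2.44 ± 0.37), and Myl10, a myosin light chain (2.44 ± 0.37), both with vehicle arrays between 4.22 and 6.23, besides Slfn1, Ctla4 and Ifit1 in the groups below.

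The falls were smaller and less even. The 16 largest among genes with an approved name, picked by the same rule, spanned 2.09-fold to 3.24-fold. Of them 13 had no overlap between the groups, against 13.3% of all genes tested. As with the rises, the choice favours this trait, which is thus no separate support. A transcript known by a clone name, C230057M02Rik, changed by -1.86 (adjusted p = 0.00897) and is outside these 16. Niban3, which marks B cells, read 8.12, 7.99, 8.14 and 8.53 in TCDD cells, against 9.82, 9.71, 10.01 and 10.03 in DMSO cells (-1.70 ± 0.13, adjusted p = 1.11e-11). Vcam1, an adhesion molecule, read 9.65, 9.60, 9.67 and 9.82 with TCDD and 10.83, 10.88, 10.83 and 10.86 with DMSO (-1.17 ± 0.14, adjusted p = 3.14e-07). Its other probe sets gave -0.83 ± 0.18, which was called, and -0.39 ± 0.21, which was not. Cd36, a scavenger receptor that takes up lipids, fell by 1.12 on the log2 scale (SE 0.23, adjusted p = 0.00102), with TCDD arrays at 11.26 to 11.77 and DMSO arrays at 12.40 to 12.90. Igfbp2, which binds insulin-like growth factors, changed by -1.22 ± 0.19 (adjusted p = 3.19e-05), Timd2, a receptor of the TIM family, by -1.09 ± 0.22 (adjusted p = 0.000748) and Wfdc21 by -1.07 ± 0.23 (adjusted p = 0.00161). Hivep3, a zinc finger factor, changed by -1.13 ± 0.20 (adjusted p = 0.000131) on its brightest probe set, but by between -0.29 and 0.38 on 3 dimmer ones, none of them called. Of the 16 falls, 7 lost their call without DMSO replicate 4. Besides Ccl5 these were the dim genes Kif1a, Adcy9, Gnrhr, Tacr2, P3h2 and Slc23a4, and all 7 lost it without TCDD replicate 4 too. Each of the other arrays (TCDD replicates 1 to 3, DMSO replicates 1 to 3) ended the call of at least 1 of the 7, and over all these cases the log2 change was -1.39 to -0.71 and the adjusted p 0.0507 to 0.244. In these arrays of bulk RNA, fewer cells with a transcript and less of it per cell cannot be told apart.

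Genes of the interferon response rose as a group. Of 28 listed, 26 were on the array and all 26 passed the filter; 19 rose and 0 fell, against 6.07% higher among all genes, and the median log2 change was 1.15. Ifit1, an antiviral RNA-binding protein, read 9.72, 10.36, 9.43 and 9.48 in TCDD cells, against 6.92, 7.31, 8.00 and 7.54 in DMSO cells (2.31 ± 0.32, adjusted p = 2.35e-06). Its relatives Ifit3 and Ifit2 rose by 1.84 ± 0.26 and 1.62 ± 0.22 (adjusted p = 3.85e-06 and 2.3e-06). Rtp4, a chaperone of membrane receptors, read 11.56, 12.24, 11.88 and 11.98 with TCDD and 8.86, 9.44, 10.54 and 10.00 with DMSO (2.21 ± 0.49, adjusted p = 0.00232). Its DMSO arrays spread more widely than its TCDD arrays. Oasl2, of the oligoadenylate synthetase family, rose by 2.00 ± 0.32 (adjusted p = 3.77e-05), Mx1, a GTPase that blocks viruses, by 1.63 ± 0.30 (adjusted p = 0.000283) and Cxcl10, a chemokine induced by interferons, by 1.39 ± 0.30 (adjusted p = 0.00165). The 7 members that did not pass (Irf9, Mx2, Oas2, Oasl1, Bst2, Ifi35 and Eif2ak2) also had values above 0, between 0.20 and 1.17. With the replicate block 23 of the 26 were higher, and without DMSO replicate 4 it was 18.

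The Schlafen family, several of whose members respond to interferon in mouse, had 7 measured members of 8. Of these, 3 rose and 0 fell, against 6.07% higher and 3.14% lower among all genes, and the median was 0.43. Slfn1 read 8.61, 8.57, 8.46 and 8.51 in TCDD cells, against 5.39, 6.26, 6.57 and 4.63 in DMSO cells. The TCDD arrays lay close together and the vehicle arrays were spread (2.83 ± 0.40, adjusted p = 4.34e-06). Slfn5 and Slfn8 rose by 1.35 ± 0.33 (adjusted p = 0.00504) and 1.03 ± 0.24 (adjusted p = 0.0041). The dimmer probe set of Slfn5 gave 0.70 ± 0.31 and was not called. Slfn2, Slfn3, Slfn9 and Slfn10-ps were not called.

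**Figure D3:**
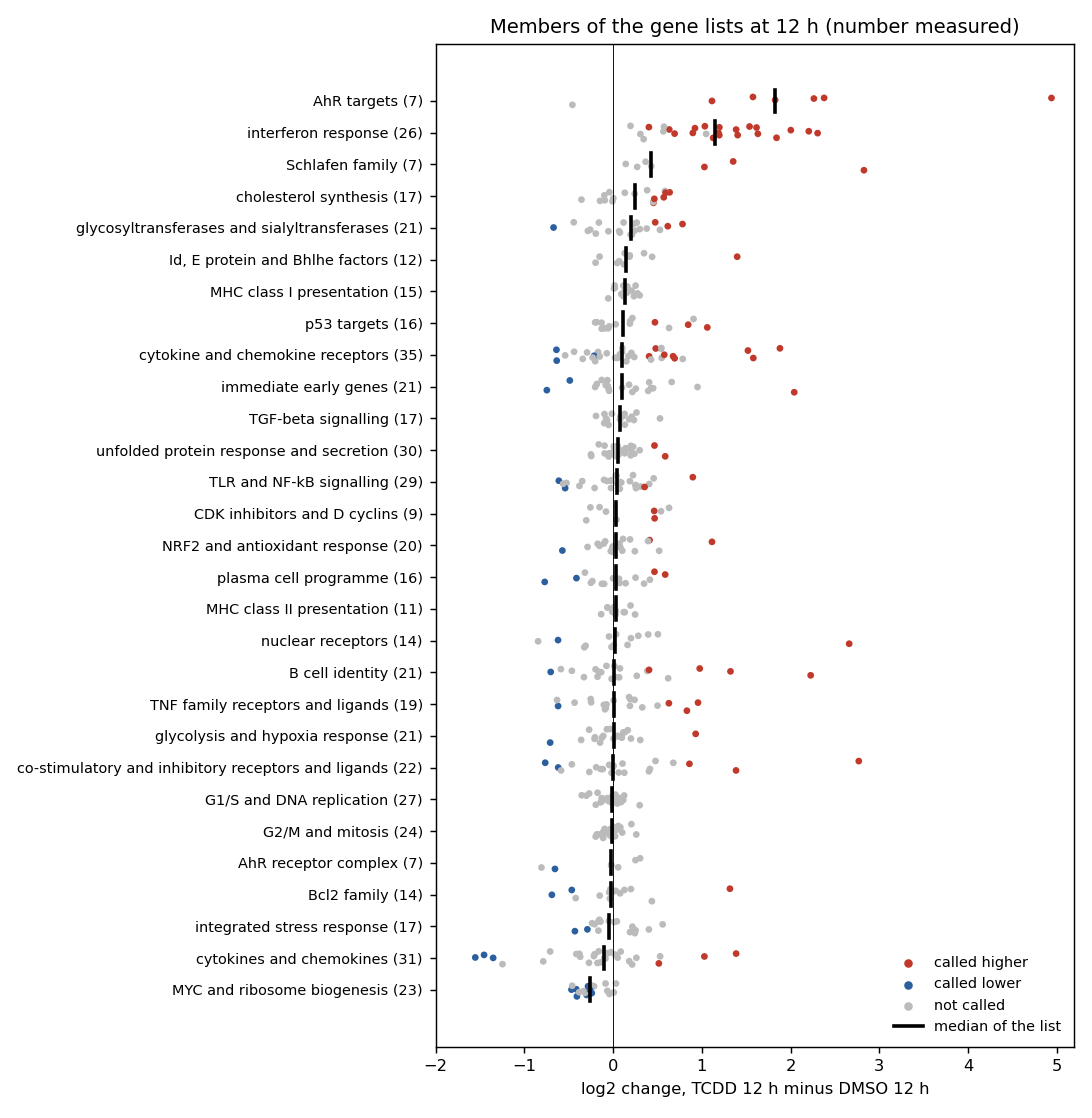
Log2 change of TCDD 12 h minus DMSO 12 h for each measured member of 29 gene lists, ordered by the median of the list (black bar); red and blue points are members called higher and lower, grey ones were not called, and the number measured is in brackets. AhR targets and interferon response genes lie farthest to the right with medians of 1.83 and 1.15, and MYC and ribosome biogenesis genes farthest to the left with -0.26.

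Of 31 cytokine and chemokine genes measured 3 rose and 3 fell, against 6.07% higher and 3.14% lower among all genes, and the median was -0.10. The replicate block gave 3 higher and 5 lower. Il6, a cytokine that promotes plasma cell survival, read 8.33, 7.56, 7.11 and 7.52 in TCDD cells, against 9.59, 9.09, 9.27 and 8.78 in DMSO cells. No array of one group reached into the other (-1.55 ± 0.30, adjusted p = 0.000412). Il4, which drives class switching in B cells, read 7.45, 7.79, 7.60 and 7.84 with TCDD and 8.65, 8.78, 9.30 and 9.77 with DMSO (-1.45 ± 0.27, adjusted p = 0.000257). Ccl5, a chemokine, overlapped between the groups (-1.35 ± 0.43, adjusted p = 0.0401) and lost its call without any 1 of 5 arrays, as given above. Besides Cxcl10, the rises were those of Il16 (0.52 ± 0.11, adjusted p = 0.00143), a chemoattractant precursor for which 2 other probe sets gave 0.34 and -0.29, and Ifng, the type II interferon (1.03 ± 0.32, adjusted p = 0.0374). Ifng lost its call without TCDD replicate 3 or 4 or DMSO replicate 1 or 2 (0.78 to 0.95, adjusted p = 0.107 to 0.163).

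Of 35 cytokine and chemokine receptors measured, 8 rose and 3 fell, where 6.07% of all genes rose and 3.14% fell, and the median was 0.10. The replicate block gave 9 higher and 6 lower. Csf1r, the receptor for macrophage colony-stimulating factor, read 10.48, 10.78, 10.66 and 10.64 in TCDD cells and 8.76, 8.77, 8.96 and 8.54 in DMSO cells. Both groups were tight, and the rise of 1.88 ± 0.09 had an adjusted p of 3.27e-17, with the macrophage markers at the levels given above. Il5ra, the interleukin 5 receptor of B cells and eosinophils, rose by 1.52 ± 0.11 (adjusted p = 1.09e-12), with TCDD arrays at 9.85 to 10.42 and DMSO arrays at 8.54 to 8.62. Il13ra1 rose by 1.58 ± 0.29 (adjusted p = 0.000266) at dim signals (6.29 to 6.45 with TCDD, 4.29 to 5.56 with DMSO). Its dimmer probe sets gave 1.01 ± 0.45 and 0.73 ± 0.25 and were not called. Il2rb rose by 0.68 ± 0.20 (adjusted p = 0.022) and S1pr2, a sphingosine phosphate receptor that keeps B cells in follicles, by 0.69 ± 0.19 (adjusted p = 0.0159). Il2rb lost its call without TCDD replicate 2 or DMSO replicate 1 or 3 (0.53 to 0.66, adjusted p = 0.0503 to 0.112), and S1pr2 without DMSO replicate 4 (0.56, adjusted p = 0.0858). Cxcr4, a chemokine receptor that guides plasma cells to bone marrow, fell by 0.64 on the log2 scale (SE 0.15, adjusted p = 0.0045), with arrays at 9.23 to 9.76 with TCDD and 10.03 to 10.31 with DMSO. The other members called were Ifnar1, Il10rb and S1pr1 (higher) and Ccr7 and Itgal (lower).

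Of 22 measured surface molecules through which B and T cells regulate each other 3 rose and 2 fell, against 6.07% and 3.14% of all genes, and the median was 0.00. Ctla4, an inhibitory receptor that binds CD80 and CD86, read 10.60, 10.47, 11.42 and 10.80 in TCDD cells, against 8.21, 7.66, 8.44 and 7.91 in DMSO cells (2.77 ± 0.21, adjusted p = 5.85e-12). Icos, a co-stimulatory receptor, rose by 1.39 ± 0.21 (adjusted p = 1.01e-05), and Cd274, which encodes the inhibitory ligand PD-L1, by 0.86 ± 0.19 (adjusted p = 0.00165). Other probe sets of Icos gave 1.98 ± 0.30, which was called, and 0.40 ± 0.29, which was not. Btla, an inhibitory receptor of B cells, read 10.38, 10.22, 10.05 and 9.95 with TCDD and 11.11, 11.06, 10.69 and 10.79 with DMSO (-0.77 ± 0.17, adjusted p = 0.00189). Cd86, the co-stimulatory ligand, changed by -0.62 ± 0.17 (adjusted p = 0.0165). It lost its call without TCDD replicate 2 or 4 or DMSO replicate 3 (-0.58 to -0.57, adjusted p = 0.0512 to 0.0568). The TNF family had 3 rises and 1 fall among 19 measured, against the same shares of all genes. Tnfsf9, the ligand of 4-1BB, read 12.69, 12.62, 12.61 and 12.66 with TCDD and 12.02, 11.84, 12.14 and 12.06 with DMSO (0.63 ± 0.12, adjusted p = 0.000315). Tnfrsf18 rose by 0.83 ± 0.18 (adjusted p = 0.0015) with overlapping groups, and Tnfrsf13b, the TACI receptor for the B cell factors BAFF and APRIL, fell by 0.62 on the log2 scale (SE 0.08, adjusted p = 1.03e-06). Tnfsf14 rose by 0.96 ± 0.27 (adjusted p = 0.02), a call lost without TCDD replicate 3 or DMSO replicate 1 or 2 (0.62 to 0.91, adjusted p = 0.056 to 0.165).

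Genes that set B cell and plasma cell identity were called in both directions. Of 21 measured B cell identity genes 4 rose and 1 fell (median 0.02), and of 16 plasma cell genes 2 rose and 2 fell (median 0.03), against 6.07% and 3.14% of all genes. With the day as a replicate block the counts were 6 higher and 2 lower for B cell identity and 3 and 3 for plasma cell genes. Bach2, a repressor that holds B cells back from plasma cell differentiation in mouse, read 7.95, 8.33, 8.88 and 8.44 in TCDD cells, against 6.44, 5.59, 6.87 and 5.79 in DMSO cells (2.23 ± 0.39, adjusted p = 0.00014). Of its other probe sets, one gave 1.68 ± 0.30 and another -0.08 ± 0.38. Prdm1, which encodes Blimp-1, the repressor that drives plasma cell differentiation, read 10.49, 10.42, 10.41 and 10.83 with TCDD and 10.21, 10.12, 10.04 and 10.38 with DMSO. It was higher on each of the 4 days without overlap (0.35 ± 0.14), and its adjusted p was 0.111 without the replicate block and 0.00305 with it, so that the call of Prdm1 depends on whether the day is in the fit. Pax5, the factor that maintains B cell identity, changed by -0.59 ± 0.30 (adjusted p = 0.253), and Bcl6 lay below the filter in both groups (5.07 and 5.13). Xbp1, the factor behind the secretory apparatus of plasma cells, read 13.01, 12.93, 13.06 and 13.09 with TCDD and 12.46, 12.36, 12.40 and 12.52 with DMSO (0.59 ± 0.07, adjusted p = 5.85e-08). Of 3 other probe sets of Xbp1, the brighter pair gave 0.44 and 0.71 and the dimmest 0.08 ± 0.16. Antibody genes themselves were not called: Jchain, the joining chain of IgM, changed by 0.07 ± 0.33 (adjusted p = 0.951) and Ighm, the mu heavy chain, by -0.10 ± 0.27 (adjusted p = 0.903).

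Other B cell genes behaved as follows. Blk, a B cell kinase of the Src family, read 10.56, 11.44, 10.81 and 10.85 in TCDD cells and 9.19, 9.67, 9.39 and 10.10 in DMSO cells (1.32 ± 0.19, adjusted p = 3.85e-06). Irf8, a factor of germinal centre B cells, rose by 0.98 ± 0.20 (adjusted p = 0.000839), and Cd79b, a signalling chain of the B cell receptor, by 0.41 ± 0.09 (adjusted p = 0.00336). Ms4a1, which encodes CD20, read 10.98, 10.95, 11.17 and 11.35 with TCDD and 11.67, 11.66, 11.79 and 12.14 with DMSO, lower on every day (-0.70 ± 0.11, adjusted p = 4.44e-05). Irf4, needed for plasma cells, changed by -0.41 ± 0.11 (adjusted p = 0.0104), and the call was lost without TCDD replicate 3 or DMSO replicate 4 (-0.33 and -0.30, adjusted p = 0.0677 and 0.0789). Sdc1, the plasma cell surface proteoglycan CD138, was dim with overlapping groups (-0.77 ± 0.25, adjusted p = 0.0401) and lost its call without any 1 of TCDD replicates 2 and 4 and DMSO replicates 1, 2 and 3 (adjusted p = 0.0584 to 0.21). Antigen presentation showed no calls, with 0 of 11 MHC class II and 0 of 15 MHC class I members past the threshold in either direction (changes of -0.13 to 0.25 and of -0.05 to 0.30), against 9.21% of all genes. With the replicate block, 3 of the 15 class I members were higher.

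The unfolded protein response and secretion list, which serves antibody production, had 2 of 30 members higher and 0 lower (median 0.05), a share near the 6.07% among all genes, and 5 higher with the replicate block. Besides Xbp1 this was Edem1, which targets misfolded proteins for degradation, at 12.24, 12.21, 12.27 and 12.47 in TCDD cells and 11.71, 11.82, 11.78 and 12.03 in DMSO cells (0.47 ± 0.08, adjusted p = 5.57e-05). The integrated stress response list had 0 of 17 members higher and 2 lower, against 6.07% and 3.14% of all genes. The 2 were Aldh18a1, an enzyme of proline synthesis (-0.43 ± 0.10, adjusted p = 0.00373, with 4 other probe sets at -0.55 to 0.09 that were not called and -0.23 at an adjusted p of 0.431 when all were averaged), and the folate enzyme Mthfd2 (-0.29 ± 0.09, adjusted p = 0.045), which lost its call without 7 of the 8 arrays in turn, DMSO replicate 1 being the exception (adjusted p = 0.0518 to 0.144). Among 20 antioxidant genes that respond to NRF2, Nqo1 and Txnrd1 rose and Gclm fell, against the same shares of all genes. Gclm, a subunit of the enzyme that starts glutathione synthesis, was lower on each day (-0.57 ± 0.11, adjusted p = 0.000473) with groups that overlapped. Txnrd1, thioredoxin reductase, rose by 0.41 ± 0.11 (adjusted p = 0.0152), a call lost without TCDD replicate 4 or DMSO replicate 1 (0.33 to 0.36, adjusted p = 0.0694 to 0.0835).

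Most genes tied to growth through MYC had lower values, by small amounts. In the MYC and ribosome biogenesis list, 0 of 23 measured members rose and 8 fell, against 3.14% lower among all genes, and 21 of the 23 had values below 0 (median -0.26). Myc itself read 12.43, 12.28, 12.01 and 12.10 in TCDD cells, against 12.72, 12.65, 12.61 and 12.72 in DMSO cells (-0.47 ± 0.09, adjusted p = 0.000516). Polr1b, a subunit of RNA polymerase I, changed by -0.41 ± 0.10 (adjusted p = 0.00652), and Nolc1, a nucleolar assembly factor, by -0.41 ± 0.10 (adjusted p = 0.0051). Pes1 (-0.30 ± 0.08), Dkc1 (-0.28 ± 0.09) and Wdr12 (-0.26 ± 0.07), which act in ribosome and small nucleolar RNA biogenesis, fell too. Pes1 lost its call without TCDD replicate 3 (-0.27, adjusted p = 0.0569) and Dkc1 without TCDD replicate 2 or 3 or DMSO replicate 1 (adjusted p = 0.0803 to 0.102). With the replicate block 14 of the 23 were lower, and without DMSO replicate 4 it was 7. Fitted on only the 8 arrays compared, with fewer residual degrees of freedom, Polr1b kept its call. Myc, Nolc1, Pes1, Dkc1 and Wdr12 lost theirs in that fit (adjusted p = 0.0655 to 0.15). Cell cycle genes were not called: 0 of 27 G1/S and replication genes and 0 of 24 G2/M genes passed the threshold, against 9.21% of all genes, with values of -0.35 to 0.30 and of -0.20 to 0.26. Cdkn2d and Cdkn2c, inhibitors of the G1 kinases, were the 2 of 9 CDK inhibitors and D cyclins called higher (4 with the replicate block), against 6.07% of all genes. They rose by 0.47 ± 0.12 (adjusted p = 0.00897) and 0.46 ± 0.13 (adjusted p = 0.0178). Cdkn2d lost its call without DMSO replicate 4 (0.38, adjusted p = 0.0551) and Cdkn2c without TCDD replicate 2 or DMSO replicate 1 or 3 (0.33 to 0.43, adjusted p = 0.0528 to 0.13).

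Some regulators of cell death and p53 targets were called. Of 14 measured Bcl2 family members 1 rose and 2 fell, against 6.07% higher and 3.14% lower among all genes. Bmf, a pro-apoptotic BH3 protein, read 8.89, 8.35, 8.88 and 8.77 in TCDD cells, against 7.86, 7.49, 7.40 and 6.87 in DMSO cells (1.32 ± 0.19, adjusted p = 7.91e-06). The dimmer probe set of Bmf gave 0.66 ± 0.37 and was not called. Bid, another BH3 protein, changed by -0.47 ± 0.09 (adjusted p = 0.000696), and the survival gene Bcl2 by -0.69 ± 0.20 (adjusted p = 0.023), a call lost without TCDD replicate 3 or 4 or DMSO replicate 1, 2 or 4 (-0.68 to -0.58, adjusted p = 0.0519 to 0.1). Of 16 p53 targets 3 rose and 0 fell, against the same shares, and 5 rose with the replicate block. Btg2, which restrains proliferation, rose by 0.85 ± 0.20 (adjusted p = 0.00501), while its dimmer probe set gave 0.48 ± 0.22 and was not called. Trp53inp1 (1.06 ± 0.32, adjusted p = 0.0276) and Sesn1 (0.47 ± 0.14, adjusted p = 0.0265) lost their calls without 5 and 4 of the 8 arrays: TCDD replicates 1, 3 and 4 and DMSO replicates 2 and 4 for Trp53inp1 (adjusted p = 0.0528 to 0.0989), and TCDD replicates 1, 2 and 4 and DMSO replicate 2 for Sesn1 (adjusted p = 0.0503 to 0.11).

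Among genes of LPS signalling, 2 of 29 measured members of the TLR and NF-kB list rose and 2 fell, against 6.07% and 3.14% of all genes; with the replicate block 5 rose and 5 fell. Irak3, which inhibits Toll-like receptor signalling, read 8.93, 8.84, 8.94 and 8.91 in TCDD cells and 8.15, 7.75, 8.12 and 8.00 in DMSO cells (0.90 ± 0.14, adjusted p = 1.71e-05). Nfkbie, an inhibitor of NF-kB that is also its target, changed by -0.61 ± 0.15 (adjusted p = 0.00468). Traf1 (-0.54 ± 0.16, adjusted p = 0.0283) and Tnip1 (0.36 ± 0.09, adjusted p = 0.00976) lost their calls without TCDD replicates 3 or 4 or DMSO replicates 1 or 2 for Traf1 (adjusted p = 0.0773 to 0.1) and without DMSO replicate 1 for Tnip1 (0.28, adjusted p = 0.062). Of 21 immediate early genes, Dusp5 rose and Dusp2 and Ier2 fell, against the same shares of all genes, and 3 rose with the replicate block. The phosphatases Dusp5 and Dusp2 went in opposite directions, Dusp5 with 7.76, 8.26, 8.07 and 7.96 in TCDD cells and 4.99, 5.54, 6.62 and 6.74 in DMSO cells (2.04 ± 0.47, adjusted p = 0.00365). Dusp2 changed by -0.75 ± 0.16 (adjusted p = 0.00142), and by -0.55 without DMSO replicate 4. Bhlhe40, a repressor of the basic helix-loop-helix family, was the 1 of 12 Id, E protein and Bhlhe factors that was called, against 9.21% of all genes. It read 12.30, 12.37, 12.79 and 12.43 with TCDD and 10.94, 10.87, 11.64 and 10.85 with DMSO, high on day 3 in both groups (1.40 ± 0.18, adjusted p = 4.39e-07).

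In metabolism, 5 of 17 cholesterol synthesis genes rose and 0 fell, against 6.07% higher among all genes, with a median of 0.24. Cyp51, lanosterol demethylase, read 11.75, 11.44, 11.34 and 11.41 in TCDD cells and 11.03, 10.86, 10.81 and 10.88 in DMSO cells (0.59 ± 0.11, adjusted p = 0.000359). Without DMSO replicate 4 it was the 1 member that stayed called. Hmgcs1, Fdft1, Nsdhl and Sqle overlapped between the groups (0.64, 0.57, 0.46 and 0.45), and their adjusted p without that array was 0.0591, 0.231, 0.0672 and 0.0637. For Hmgcs1, Fdft1 and Sqle the call was also lost without TCDD replicate 1, for Fdft1 and Sqle without TCDD replicate 2, and for Fdft1 without TCDD replicate 3 or DMSO replicate 2 or 3 (adjusted p = 0.054 to 0.231 over these cases). With the replicate block 8 members were higher. Fdft1 changed by 0.15 (adjusted p = 0.694) when its probe sets were averaged. Among 21 glycolysis and hypoxia genes 1 rose and 1 fell, against 6.07% and 3.14% of all genes. Pfkp, the platelet form of phosphofructokinase, rose by 0.93 ± 0.10 (adjusted p = 1.51e-08), with 1.08 and 0.02 on other probe sets. Adm, adrenomedullin, a hypoxia-induced peptide, fell by 0.71 on the log2 scale (SE 0.15, adjusted p = 0.00159). Of 21 glycosyltransferases 3 rose and 1 fell, against the same shares of all genes. Mgat4a, which branches N-glycans, rose by 0.78 ± 0.09 (adjusted p = 1.88e-07), St3gal2 by 0.62 ± 0.15 (adjusted p = 0.00643) and St3gal6 by 0.48 ± 0.15 (adjusted p = 0.0363), while Fut8, which adds core fucose to antibodies and other glycoproteins, changed by -0.67 ± 0.11 (adjusted p = 3.54e-05). The dimmer probe set of Mgat4a gave 0.31 ± 0.14 and was not called. St3gal6 lost its call without TCDD replicates 1, 2 or 3 or DMSO replicates 3 or 4 (0.34 to 0.48, adjusted p = 0.0681 to 0.183), and with its probe sets averaged it changed by 0.12 (adjusted p = 0.405). Fut8 lost its call under the same averaging (-0.45, adjusted p = 0.2), as did Nr1d2 (-0.66, adjusted p = 0.116). Of the nuclear receptors, Nr1d2, a clock repressor, changed by -0.62 ± 0.15 (adjusted p = 0.00621). The TGF-beta signalling list had 0 of 17 members past the threshold, against 9.21% of all genes, with changes of -0.19 to 0.53, and 1 higher without DMSO replicate 4.

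Set against the neighbouring times, most of what was seen at 8 h was also seen at 12 h. At 8 h 4.15% of the genes tested were called: 329 were higher with TCDD (2.75%) and 168 lower (1.4%). Of the genes called higher, 270 were shared, which is 37.1% of those at 12 h and 82.1% of those at 8 h. Of those called lower, 106 were shared, which is 28.2% of those at 12 h and 63.1% of those at 8 h, and 0 genes were called in opposite directions. The difference of the TCDD effect between 12 h and 8 h passed the threshold for 0 genes (0%) in limma, for 2 with the replicate block, and for 3 without DMSO 12 h replicate 3. Of the 11970 genes tested, 502 had an unadjusted p under 0.05 in limma, which about 5% would pass if no gene differed. In simulated data the same test found 26% of 50 differences of 1.5-fold and 74% of 50 of 2-fold. The smallest adjusted p on the arrays was 0.091, reached by Cytip, which regulates cell adhesion (0.84 ± 0.09 at 12 h and 0.20 ± 0.09 at 8 h), and Gsn, the actin-severing gelsolin (1.60 ± 0.16 and 0.47 ± 0.16). Plet1 changed by 3.82 ± 0.30 at 8 h and 4.18 ± 0.30 at 24 h, and Cyp1a1 by 5.21 ± 0.19 and 6.01 ± 0.19, in vehicle cells whose Cyp1a1 level was 8.16 at 8 h, 8.41 at 12 h and 6.11 at 24 h.

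At 24 h 7.58% of the genes tested were called: 575 were higher with TCDD (4.8%) and 332 lower (2.77%). Shared with 12 h were 330 of the genes called higher (45.4% of those at 12 h, 57.4% of those at 24 h) and 93 of those called lower (24.7% and 28%), and 3 genes were called in opposite directions. In all, 167 genes were higher and 46 lower at 8, 12 and 24 h, while 514 of the 1103 were called at 12 h and at neither of the other times. The change of the effect between 12 h and 24 h was itself past the threshold for 70 genes (0.585%), for 28 of which the effect was the higher at 12 h and for 42 the lower, and for 270 genes with the replicate block. Without single arrays the count was 40 to 82 or, without whole days, 8 to 53, lowest without replicate 2. The single arrays that moved it by over 1.5 times were TCDD 12 h replicates 2 and 4 (45 each), TCDD 24 h replicate 3 (44) and DMSO 24 h replicates 1, 2 and 4 (40, 43 and 43).

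Of the 42 genes with a lower effect at 12 h than at 24 h, 35 were called higher at 24 h, against 4.8% of all genes tested. The genes were picked for that difference, which favours a high effect at 24 h, so this count is no separate support. Called higher already at 12 h were 15, against 6.07% of all genes. Of the 42 genes, 8 are among the 26 measured members of the interferon list, out of 11970 genes tested. The interferon list had medians of 0.35 at 8 h, 1.15 at 12 h and 2.18 at 24 h, with 2, 19 and 25 of its 26 members called higher. Oasl2 changed by 0.93 ± 0.32 at 8 h, 2.00 ± 0.32 at 12 h and 4.32 ± 0.32 at 24 h, so that the 12 h effect was lower than the 24 h one by 2.32 (SE 0.46, adjusted p = 0.0075). Ifit3 went through 0.40, 1.84 and 3.66, and Ifit2 through 0.34, 1.62 and 3.21, with differences between 12 h and 24 h of -1.82 ± 0.37 (adjusted p = 0.009) and -1.59 ± 0.31 (adjusted p = 0.0075). Ifit1 changed by 0.48, 2.31 and 3.61 at the same times, and its difference between 12 h and 24 h was not past the threshold (-1.30 ± 0.45, adjusted p = 0.26). Tlr7, the endosomal receptor for single-stranded RNA, and Phf11d had low values at 12 h (0.31 ± 0.13 and 0.47 ± 0.14) and 1.53 ± 0.13 and 1.76 ± 0.14 at 24 h. The call of Phf11d at 12 h was lost without any 1 of 6 arrays (TCDD replicates 1 to 3, DMSO replicates 1, 2 and 4; adjusted p = 0.0596 to 0.103). Cep57l1 changed by 0.27 ± 0.15 at 12 h, which was not called, and by 1.54 ± 0.15 at 24 h.

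**Figure D4:**
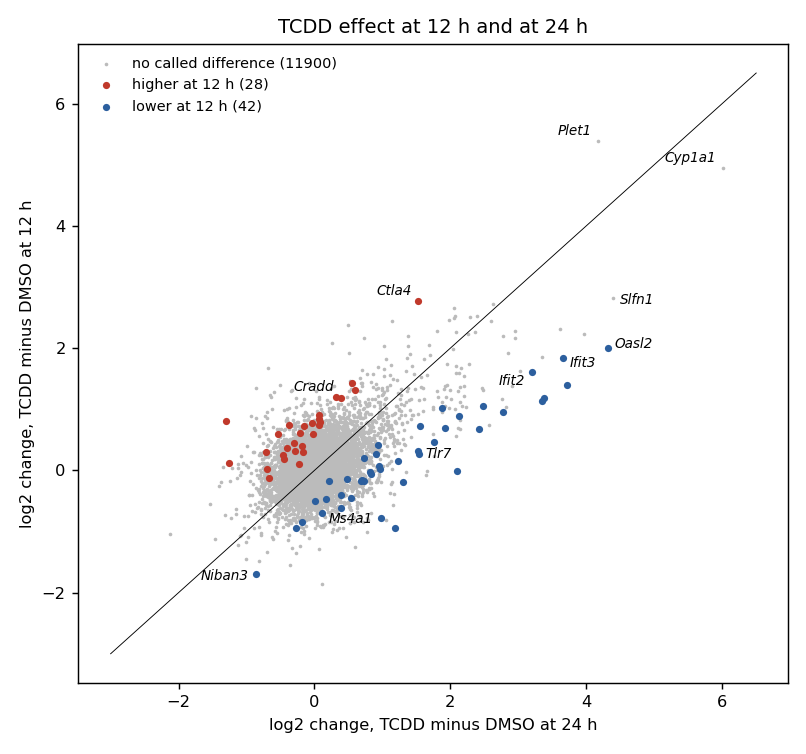
Log2 change with TCDD at 12 h (vertical) against that at 24 h (horizontal) for 11970 genes; coloured points are the 70 genes whose effect differed between the times, red where it was higher at 12 h (28) and blue where it was lower (42), and the line marks equal effects. The interferon-induced genes Oasl2, Ifit2 and Ifit3 lie below the line on the right, and Ctla4 and Cradd above it.

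Of the 28 genes with a higher effect at 12 h, 19 were called higher with TCDD at 12 h and 10 were called lower at 24 h. Among all genes tested these shares were 6.07% and 2.77%. The 28 were picked for the difference, which favours both traits, so these counts are no separate support either. Xbp1 was raised by 0.46 ± 0.07 at 8 h and 0.59 ± 0.07 at 12 h and changed by -0.03 ± 0.07 at 24 h (12 h minus 24 h, 0.62 ± 0.09, adjusted p = 0.00053). The means behind this were 12.65, 13.02 and 13.40 in TCDD cells at 8, 12 and 24 h and 12.19, 12.44 and 13.43 in DMSO cells, the DMSO mean being highest at 24 h. Mgat4a was likewise near 0 at 24 h, with 1.00 ± 0.09, 0.78 ± 0.09 and -0.04 ± 0.09, and Cytip had 0.20, 0.84 and 0.07 with means of 12.72 and 12.66 in TCDD and DMSO cells at 24 h. Cradd, an adaptor in caspase activation, rose at all 3 times (1.12 ± 0.08, 1.18 ± 0.08 and 0.39 ± 0.08), least at 24 h. Ctla4 rose by 1.75 ± 0.21, 2.77 ± 0.21 and 1.53 ± 0.21, and its means in DMSO cells were 7.67, 8.05 and 10.60. Hmgb3, a chromatin protein, was called at 12 h with the replicate block (adjusted p = 0.04) and not without it (0.18 ± 0.07, adjusted p = 0.115), and fell at 24 h (-0.45 ± 0.07).

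Genes that fell at 12 h and had values nearer to or above 0 at 24 h included Niban3 (-1.26 ± 0.13 at 8 h, -1.70 ± 0.13 at 12 h, -0.87 ± 0.13 at 24 h), Ms4a1 (-0.50 ± 0.11, -0.70 ± 0.11, 0.11 ± 0.11), Myc (-0.68 ± 0.09, -0.47 ± 0.09, 0.17 ± 0.09) and Cd86 (-0.55 ± 0.17, -0.62 ± 0.17, 0.39 ± 0.17). For each of these 4 the difference between 12 h and 24 h passed the threshold (adjusted p = 0.026, 0.0075, 0.0091 and 0.042). Il6 changed by -1.66 ± 0.30 at 8 h and -0.37 ± 0.30 at 24 h, and its difference between 12 h and 24 h did not pass (-1.19 ± 0.42, adjusted p = 0.28). The medians of the MYC and ribosome biogenesis list were -0.16, -0.26 and -0.15 at the 3 times. For cholesterol synthesis they were -0.08, 0.24 and -0.23, and 1 of its 17 members, Sqle, had a difference between 12 h and 24 h past the threshold (0.75 ± 0.17, adjusted p = 0.022).

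**Figure D5:**
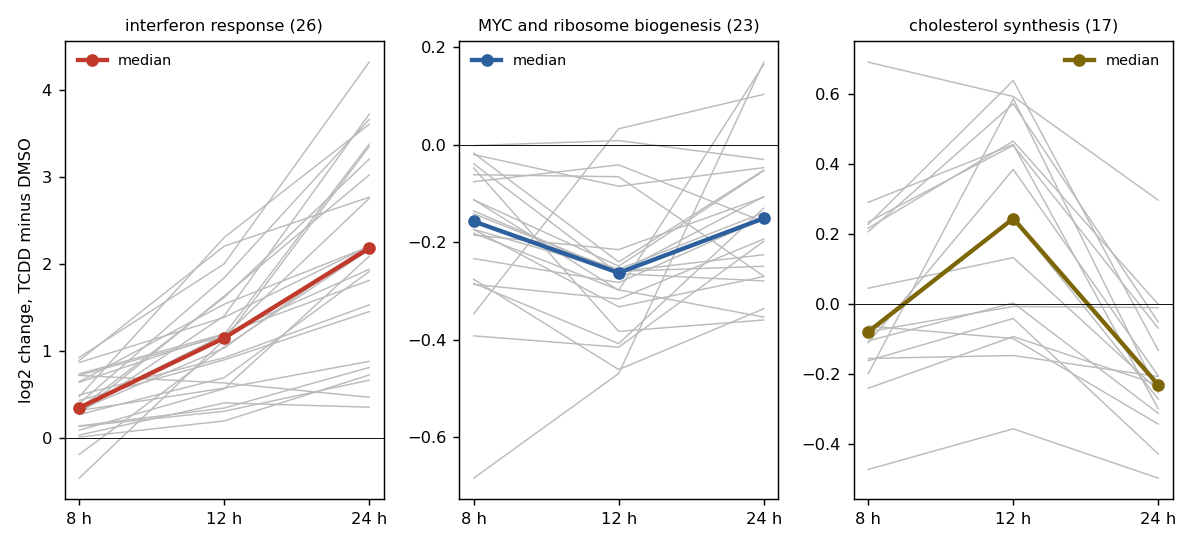
Log2 change with TCDD against DMSO at 8, 12 and 24 h for the measured members of 3 gene lists (grey lines) with the median of each list (thick line); the 3 panels have different vertical scales. The median of the interferon response is 0.35, 1.15 and 2.18 at the 3 times, that of MYC and ribosome biogenesis stays between -0.26 and -0.15, and that of cholesterol synthesis is above 0 at 12 h only.

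The effect at 12 h was also set against what activation had done to the same genes by 8 h, taken as DMSO 8 h against untreated cells, 2 groups that share no array with the 12 h comparison. LPS, DMSO and time in culture cannot be told apart in that contrast. By 8 h 201 genes were up by at least 2-fold (1.68%) and 368 down (3.07%). Of the 201 genes up, 45 (22.4%) were higher and 18 (8.96%) lower with TCDD at 12 h, against 6.07% and 3.14% of all genes tested. Of the 368 genes down, 74 (20.1%) were higher and 6 (1.63%) lower, against the same shares. The median TCDD change was 0.10 in the genes up and 0.19 in those down, against 0.01 over all genes tested. Without DMSO 12 h replicate 4, the 18 genes up and lower with TCDD became 11.

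Single genes fell into each of the 4 combinations. Il6, which activation had raised by 4.79, was lower with TCDD at 12 h, as were Igfbp2 (raised by 1.57) and Ccl5 (raised by 2.73). Ptgs2 and Cyp1a1 had been raised by 3.60 and 2.15, and TCDD cells had still more of both. Ctla4, Vdr, Dusp5 and Bhlhe40 had been lowered by 8 h of activation (-2.06, -1.39, -1.79 and -1.15) and were higher with TCDD than with DMSO at 12 h. In TCDD cells at 12 h the level of Vdr was 9.18 and that of Ctla4 10.82, against 8.08 and 9.73 in untreated cells. Adm and Ms4a1 had been lowered by 2.21 and 1.02 and were lower again with TCDD. St14, Spint1, Cradd, Nqo1 and Irak3, all higher with TCDD at 12 h, changed by 0.02, 0.65, -0.17, 0.01 and -0.01 by 8 h and were not called in that contrast.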

How the data were processed

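RNA of CH12.LX cells was measured on Affymetrix Mouse Genome 430 2.0 arrays, 44 in 11 groups of 4. The deposited values are intensities, 1 per probe set, made by the authors; the submitters' processing notes name GCOS 1.0. Each array's trimmed mean is the same in the deposited columns. The array number limits the precision. The deposited intensities were quantile normalized between arrays, 16 was added and log2 was taken. Of 45101 probe sets 64 controls were left out; 34945 had 1 gene symbol, 932 several and 9160 none, per GEO's platform annotation. The brightest probe set stood for each of 18193 genes, and 11970 genes with a group mean above 6.21, the median of all values, were tested. Values of other probe sets are given for some of the named genes only.

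limma 3.58.1 in R 4.3.3 fitted 11 group means over all 44 arrays (lmFit, eBayes, Benjamini-Hochberg, threshold 0.05); SE is the moderated one. This test was checked on simulated data. TCDD was set against DMSO at 12 h, and that effect against those at 8 h and 24 h. Groups came from the labels, where the replicate number marks a day of handling, so same-numbered arrays are paired by design. The deviations of same-numbered TCDD and DMSO arrays at 12 h from their group means correlated with r of 0.384, 0.0644, 0.174 and 0.286. The fit with the day as a replicate block is given as an alternative, as are other filters, scalings, probe set rules, pseudocounts and left-out arrays.

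The genes named are the 16 largest rises and 16 largest falls among called genes with the same direction in 4 of 4 pairs and an approved symbol (1 clone name was passed over), up to 6 called members per list by size, a fixed set of AhR, plasma cell and B cell genes, and 8 genes per test of a difference between times, 122 in all. Other genes given by name without this rule were members of the lists. The members, the 29 gene lists, the 8 marker lists and the tests were chosen with earlier results of these data known. Promoter sequences are from RefSeq (GRCm38.p6). Python 3.11.15 with matplotlib 3.10.9 made the figures.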

Additional observations from a re-analysis of the deposited data

Results flagged for a closer look

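Of 248 groups of 4 arrays examined (244 of them for genes), 9 held an array that lay far from its other 3; chance gives about 5% of groups. DMSO 12 h replicate 4 accounted for 4 of these. Its median deposited signal was 87.6, and its log2 signals were 4.37 for Fhod3, 6.61 for Ahrr and 7.26 for S1pr2, each below the other DMSO arrays. The other 5 were TCDD 12 h replicate 4 for Gnrhr (4.44) and Gsn (10.65), TCDD 12 h replicate 3 for Nsdhl (9.56), TCDD 12 h replicate 2 for St3gal2 (9.68) and DMSO 12 h replicate 3 for Bhlhe40 (11.64).

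Among the genes named, 17 had a TCDD effect at 12 h that differed from that at 24 h in limma's test of the difference (adjusted p under 0.05). The effect was higher at 12 h, by 1.24 for Ctla4, 0.82 for Mgat4a, 0.80 for Cradd, 0.77 for Cytip, 0.75 for Sqle, 0.62 for Xbp1 and 0.62 for Hmgb3 on the log2 scale. It was lower at 12 h, with differences of -2.32 for Oasl2, -1.82 for Ifit3, -1.59 for Ifit2, -1.29 for Phf11d, -1.28 for Cep57l1, -1.22 for Tlr7, -1.01 for Cd86, -0.83 for Niban3, -0.82 for Ms4a1 and -0.64 for Myc.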

How the results depend on the processing

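With the replicate block the fit called 1950 genes at 12 h (1185 higher, 765 lower), and with the day as a random block 1829 (1126 and 703). Fitted on only the arrays compared it called 401 (306 and 95), and 432 (331 and 101) with the replicate block, in fits with fewer residual degrees of freedom. Leaving out single arrays or days gave 509 to 1022 genes (366 to 673 higher, 143 to 357 lower), lowest without day 2. The 12 h against 24 h difference was called for 270 genes with the replicate block, 212 with the random block, 40 on only the arrays compared and 180 there with the replicate block, and for 8 to 82 with arrays or days left out. For 12 h against 8 h the count of 0 became 2 with the replicate block, the random block, the values as deposited and an intensity trend, 1 with all probe sets and with the mean of probe sets, and 0 to 3 with arrays or days left out. Of genes up by 8 h of activation, those higher with TCDD numbered 29 on only the arrays compared, 28 there with the replicate block and 30 to 52 with arrays or days left out; those lower numbered 6 on only the arrays compared, 35 with all probe sets and 8 to 18 with arrays or days left out. Of genes down, those higher numbered 27 on only the arrays compared, 39 there with the replicate block, 46 with the mean of probe sets and 40 to 77 with arrays or days left out; those lower numbered 11 with the replicate block, 12 with all probe sets and 4 to 7 with arrays or days left out. The causes were not tested. Of the 113 named genes called, 113 stayed called with the replicate block, 109 on the values as deposited, 71 on only the arrays compared, 94 to 105 without single arrays and 75 to 96 without single days. The 42 that lost their call on only the arrays compared include Ahr (adjusted p = 0.0853), Myc (0.0655), Irf4 (0.186) and Cd79b (0.122). Without day 2, 38 lost their call, Rtp4, Cxcl10, Slfn8, Btla and Dusp5 among them; 82 stayed called without each of the 8 arrays in turn. When a gene's probe sets were averaged, 93 of 108 stayed called, 14 lost their call and Hivep3 turned to 0.021. Among the 14, Kif1a moved to -0.49, Il16 to 0.23, Aldh18a1 to -0.23, Sesn1 to 0.22, Fdft1 to 0.15 and St3gal6 to 0.12, each by over 1.5 times. Apart from Prdm1 and Hmgb3, which the replicate block brought past the threshold, it changed no call of a named gene. Genes near the background of the arrays are limited by signal, since 16 was added to every value.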
